A study of Mus musculus with 4 samples.

Results

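Transcripts of 10 genes of matrix turnover were followed in the lungs of normal and ovalbumin (OVA)-induced mice with and without Rab44. They are the matrix metalloproteinases Mmp2, Mmp3, Mmp10, Mmp12, Mmp13, Mmp14 and Mmp19, and the tissue inhibitors Timp1, Timp2 and Timp3. The genes were taken by symbol, 10 of the 41079 genes in the deposited table, with 7 proteases and 3 inhibitors, and the neutrophil types Mmp8, Mmp9 and Mmp25 were left out. Matrix metalloproteinases are zinc-dependent enzymes that are made as inactive precursors and, once activated, cut collagens, elastin and other matrix proteins as well as cytokines and cell surface proteins. Timps are small proteins that bind the active site of these enzymes and block it. In the allergic lung this enzyme family is known for its part in airway remodeling and in the movement of leukocytes through tissue.

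Total lung RNA gave 4 libraries, named here normal WT, normal KO, OVA WT and OVA KO for untreated or OVA-induced mice of the WT or Rab44-KO genotype, with 1 library per group. All mice were females on a C57BL/6 background, 8 to 14 weeks old, and the WT mice were age-matched littermates of the KO mice, which were made by CRISPR/Cas9 editing of Rab44. The KO is not limited to one cell type. The OVA-induced mice of both genotypes were sensitized on days 0, 7 and 14 by intraperitoneal injection of 100 μg OVA with alum, then given 100 μg OVA in 50 μL into the nose on 4 days, from day 17 to day 20, and lungs were taken on day 21. The normal mice are labeled as untreated, although the protocol in their labels also names PBS. How many mice each library holds is not given in the sources used here. No difference therefore has a replicate check, a comparison is one of libraries rather than of conditions, and no p-value was computed.

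Rab44 had 251 counts in normal WT, 1 in normal KO, 810 in OVA WT and 0 in OVA KO lungs, following the genotype labels. The libraries summed to between 18112901 and 19910236 counts, with 24316 to 25003 genes detected. All 8 lung epithelium markers, among them Sftpc and Scgb1a1, had counts in every library. Levels are given as raw counts or as CPM (counts scaled to the same total in every library), further scaled by the TMM method, which sets the libraries to a common center over most genes, and levels of different genes are compared per transcript length, as the deposited TPM (transcript abundance scaled by length). A log2 fold change (log2FC) is the difference of log2 CPM between 2 libraries. The ranges in brackets are exact 95% intervals that cover counting error only and say nothing about variation between mice. A gene was counted as over 2-fold when its log2FC was beyond 1 in size and the larger of its counts was 10 or more.

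Among the members, 4 lie close together on chromosome 9. Mmp13, Mmp12, Mmp3 and Mmp10 fall in this order within a cluster of 10 Mmp genes that spans 427 kb at chr9:7272514-7699585 (GRCm38, GENCODE M21), and 5 genes of the cluster (Mmp1b, Mmp1a, Mmp10, Mmp20 and Mmp7) had 0 counts in every library. The other proteases lie apart, Mmp2 at chr8:92827291-92853420, Mmp14 at chr14:54431612-54445364 and Mmp19 at chr10:128790910-128800824. Timp1 lies at chrX:20870166-20874735, Timp2 at chr11:118301069-118355740 and Timp3 at chr10:86300372-86349506. RefSeq promoters (GRCm38.p6, 250 bases before to 50 after the start) were held for 8 of the 10 genes, with no entry for Mmp2 and Mmp19. The last 120 bases before the outermost annotated start are printed for 7 of them, 5′ to 3′, because neighbors in the cluster differ in these letters and in their counts, and capitals mark the AP-1 letters TGANTCA, the motif of Fos and Jun proteins.
Mmp3 promoter, chr9:7445702-7445821, + strand: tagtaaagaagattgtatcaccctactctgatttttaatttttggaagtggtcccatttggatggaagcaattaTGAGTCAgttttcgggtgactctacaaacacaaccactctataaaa
Mmp10 promoter, chr9:7502222-7502341, + strand: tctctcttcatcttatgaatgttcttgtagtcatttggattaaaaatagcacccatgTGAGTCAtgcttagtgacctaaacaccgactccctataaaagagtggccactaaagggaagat
Mmp13 promoter, chr9:7272394-7272513, + strand: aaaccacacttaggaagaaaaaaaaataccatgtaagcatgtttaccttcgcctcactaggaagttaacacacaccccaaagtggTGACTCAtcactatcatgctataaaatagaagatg
Mmp12 promoter, chr9:7344261-7344380, + strand: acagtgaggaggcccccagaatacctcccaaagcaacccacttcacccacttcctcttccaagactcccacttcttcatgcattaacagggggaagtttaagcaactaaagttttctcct
Mmp14 promoter, chr14:54431478-54431597, + strand: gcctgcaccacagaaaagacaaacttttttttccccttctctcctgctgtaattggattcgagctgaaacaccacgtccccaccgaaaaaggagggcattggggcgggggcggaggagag
Timp1 promoter, chrX:20870046-20870165, + strand: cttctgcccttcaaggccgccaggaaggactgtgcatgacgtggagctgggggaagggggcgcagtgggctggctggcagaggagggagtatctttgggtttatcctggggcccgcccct
Timp3 promoter, chr10:86300252-86300371, + strand: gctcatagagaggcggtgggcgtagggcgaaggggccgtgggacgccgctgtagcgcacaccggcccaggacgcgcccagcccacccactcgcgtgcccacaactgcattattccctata
The AP-1 letters were found once each in the promoters of Mmp3, Mmp10 and Mmp13, with the first base at positions -46, -63 and -35 from the RefSeq start, and both strands were searched. They were found in 7.81% of all 32851 promoters of the same length. The same 3 promoters hold the TATA box letters TATAAA, at positions -7, -29 and -16, which 13.6% of promoters hold. Neither set of letters was found in the windows of Mmp12, Mmp14, Timp1, Timp2 and Timp3. The GC box letters GGGCGG were found in Mmp14 (2 matches), Timp1 (1 match), Timp2 (1 match) and Timp3 (2 matches), and in 35.7% of promoters. These matches describe letters and not bound sites, and carrying AP-1 and TATA letters did not go with one level: Mmp3 had 382 to 725 counts, Mmp13 17 to 54 and Mmp10 none.

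The largest difference among the 10 genes was that of Mmp12, which had 2153 counts in OVA WT lungs and between 100 and 126 counts in the other 3 libraries. Mmp2, Mmp19 and Timp1 were also over 2-fold lower in OVA KO than in OVA WT lungs, whereas Timp3, the most abundant inhibitor by TPM in every library but OVA WT, was close to 2-fold higher. Of the 10 genes 9 had at least 10 counts in every library and Mmp10 had none. Between OVA-induced libraries 4 of these 9 genes were over 2-fold lower and 0 higher in KO, against 7.34% lower, 8.4% higher and 15.7% in either direction of all 19259 genes with enough counts. On the TPM scale 1 gene, Mmp12, stayed over 2-fold lower and 1, Timp3, was over 2-fold higher, against 4.03% and 13.5% of all genes. Only Mmp2 and Mmp12 stayed lower where the whole interval had to pass 2-fold, as 2.76% of all genes did. The median log2FC on the CPM scale was -0.85 over the 9 genes and -0.02 over all genes. In bulk lung RNA, fewer cells that make a transcript and less of it per cell cannot be told apart.

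**Figure D1:**
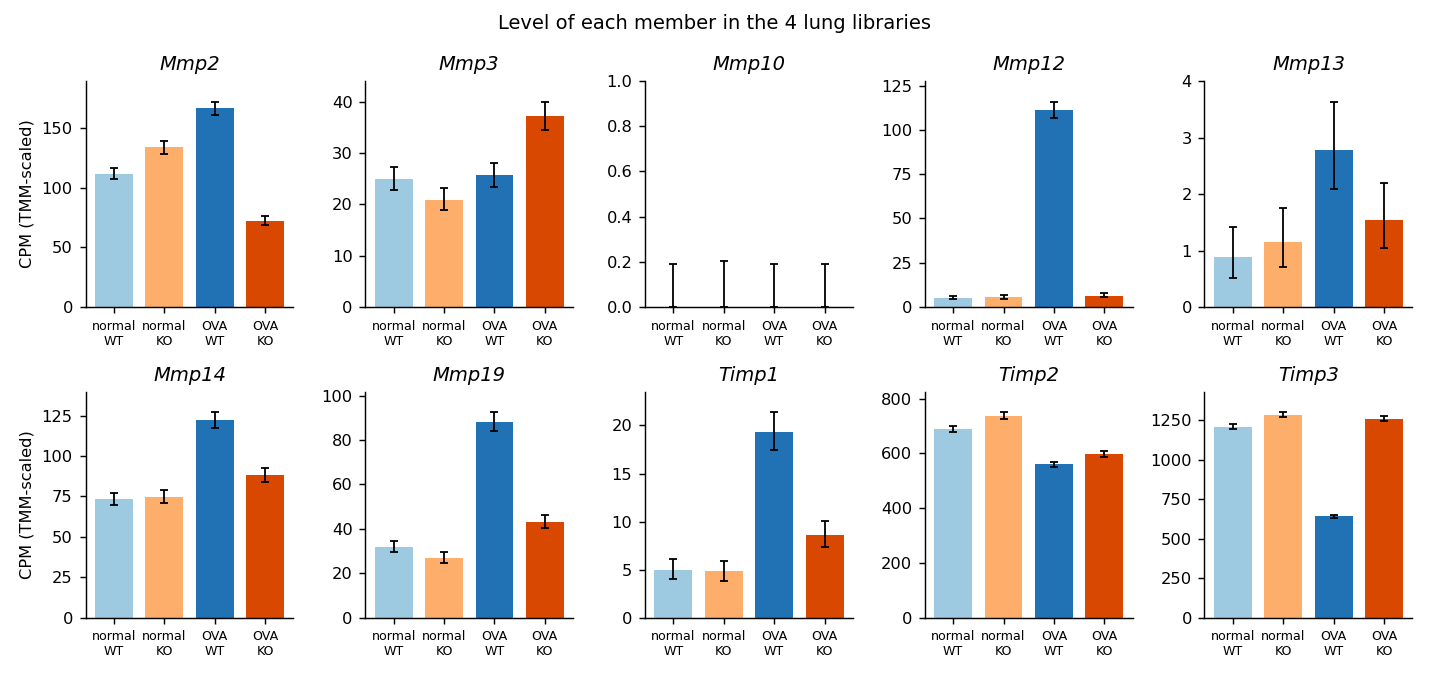
Level of each of the 10 genes (CPM, TMM-scaled, linear axes from 0, 1 panel per gene) in normal WT, normal KO, OVA WT and OVA KO lungs; bars are single libraries, with error bars as exact 95% Poisson intervals. Mmp12 stands out in OVA WT at 111 CPM against 5.26 to 6.46 CPM in the other 3 libraries, and Timp3 is lowest there.

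Mmp2 encodes a gelatinase made mainly by fibroblasts and other stromal cells, which cuts denatured collagen and basement membrane collagen. Its counts were 2147 in normal WT, 2445 in normal KO, 3228 in OVA WT and 1414 in OVA KO lungs. The OVA WT library was the highest of the 4 and the OVA KO library the lowest, with none of the 4 level intervals overlapping. The log2FC of KO over WT was 0.26 (0.18 to 0.35) in normal and -1.20 (-1.29 to -1.11) in OVA-induced lungs. From normal to OVA-induced lungs Mmp2 was higher in WT, with a log2FC of 0.58 (0.50 to 0.66), and lower in KO, with -0.89 (-0.98 to -0.79). Of 13484 genes that reached 100 counts in the KO pair, 260 had a lower log2FC than Mmp2. Fibroblast markers were present throughout, with 0 of 10 at 0 counts, and their summed level was 2070, 2143, 2228 and 1762 CPM in the same order of libraries. Without Col3a1, 30.5% of the list's counts in OVA WT, the sums were 1716, 1741, 1549 and 1419 CPM. OVA WT then lay below both normal libraries. Per 1000 fibroblast marker counts, Mmp2 had 54.0, 62.5, 74.8 and 41.2 counts, or 65.2, 77.0, 107.6 and 51.1 without Col3a1. Both ways the order of the libraries was the same as for the level itself. These ratios were chosen after the data were seen, and the part of fibroblasts in the Mmp2 difference was not tested.

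Mmp3 and Mmp10 encode stromelysins, which cut a broad range of matrix proteins and activate other protease precursors. The counts of Mmp3 were 479 in normal WT, 382 in normal KO, 496 in OVA WT and 725 in OVA KO lungs. It was the only protease of the set that was highest in OVA KO lungs. Its log2FC of KO over WT was 0.54 (0.37 to 0.71) in OVA-induced and -0.25 (-0.45 to -0.06) in normal lungs. Between normal and OVA WT lungs Mmp3 differed by less than counting error, with a log2FC of 0.04 (-0.15 to 0.22), and the KO pair gave 0.83 (0.65 to 1.01). Mmp10 had 0 counts in all 4 libraries, and 3 counts, the floor used here for a count of 0, correspond to 0.154 to 0.164 CPM. No fold is given for it.

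Mmp12 encodes the elastase of macrophages, which degrades elastin and is induced by type 2 cytokines in macrophages of the lung. Its counts were 101 in normal WT, 100 in normal KO, 2153 in OVA WT and 126 in OVA KO lungs. Only the OVA WT library stood apart, and the intervals of the other 3 overlapped. OVA WT lungs had 21.1 times the Mmp12 level of normal WT lungs (log2FC 4.40, 4.11 to 4.70), and 98 of 13575 genes with at least 100 counts had a higher log2FC. Between OVA-induced libraries it was 17.2-fold lower in KO (log2FC -4.10, -4.38 to -3.84), and 36 of 13704 genes had a lower log2FC. The KO pair gave a log2FC of 0.24 (-0.15 to 0.63) and the normal pair 0.06 (-0.35 to 0.47), both within counting error of no difference.

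Genes of macrophages differed between the same libraries. Of 10 macrophage markers, 6 were over 2-fold lower in OVA KO than in OVA WT lungs and 0 higher. The shares of all genes were 7.34% and 8.4%, and the list had a median log2FC of -1.13. Marco, a scavenger receptor of alveolar macrophages, had 912 and 76 counts (log2FC -3.59, -3.95 to -3.26), and Cd68, a lysosomal protein of macrophages, had 2352 and 651. Unlike Mmp12, Marco also differed between the normal libraries, with 145 counts in WT and 379 in KO. Csf1r at -0.42 and Fcgr1 at -0.17 were within 2-fold between OVA-induced libraries, and Mertk went the other way at 0.12. Of 8 markers of macrophages activated by type 2 cytokines, 8 were over 2-fold lower, with a median log2FC of -2.69, among them Retnla, a secreted protein of such cells, at 44659 and 944 counts and Chil4, a chitinase-like protein, at 7063 and 19. No marker of either list was at 0 counts in any library. Summed levels in normal WT, normal KO, OVA WT and OVA KO lungs were 410.4, 417.5, 897 and 457 CPM for the macrophage list and 413, 380.0, 8099 and 992 CPM for the type 2 list. Per 1000 macrophage marker counts, Mmp12 had 12.8 (10.4 to 15.6), 13.1 (10.7 to 15.98), 124 (118 to 129.6) and 14.2 (11.8 to 16.9) counts. Per 1000 counts of the type 2 list it had 12.7 (10.4 to 15.5), 14.4 (11.7 to 17.6), 13.7 (13.2 to 14.3) and 6.51 (5.42 to 7.76). On the macrophage scale OVA WT alone lay higher, also with Csf1r, the gene of that list with the most counts over the 4 libraries, left out. On the type 2 scale OVA KO lay lowest, an order that rested on Chil3, a secreted lectin, which made up 85.9%, 81.3%, 64.8% and 92.4% of that list's counts. Without Chil3, Mmp12 had 90.1 (72.8 to 110.5), 77.2 (62.3 to 94.6), 39.0 (37.3 to 40.7) and 85.5 (70.7 to 102.6) counts per 1000, so OVA WT lay lowest, an order that in turn rested on Retnla, 80.9% of the remaining counts of OVA WT. With both genes left out the ratios were 186 (149 to 230.4), 190.5 (152 to 236), 204 (195 to 214) and 237.7 (194 to 289) and the intervals overlapped, so the type 2 scale gave no order that held across these choices. These ratios were chosen after the data were seen, and the part of either cell type in the Mmp12 difference was not tested.

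Mmp13, a collagenase that cuts fibrillar collagen, was the lowest of the detected members. It had 17, 21, 54 and 30 counts in normal WT, normal KO, OVA WT and OVA KO lungs. OVA WT was the highest, with a log2FC of 1.65 (0.85 to 2.53) over normal WT. The log2FC of KO over WT was -0.85 (-1.55 to -0.19) in OVA-induced lungs, and the normal pair, at 0.38 (-0.61 to 1.39), showed no difference detectable at this depth.

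Mmp14 encodes a membrane-anchored protease that activates the Mmp2 precursor at the cell surface with the help of Timp2. Its counts were 1410 in normal WT, 1363 in normal KO, 2365 in OVA WT and 1717 in OVA KO lungs. The normal libraries overlapped, at a log2FC of 0.02 (-0.08 to 0.13), and both OVA-induced libraries lay above them. OVA WT was higher than normal WT by a log2FC of 0.73 (0.64 to 0.83), and OVA KO was below OVA WT at -0.47 (-0.56 to -0.38). On the CPM scale Mmp14 stayed within 2-fold in all 4 comparisons, as did Mmp3, Timp2 and Timp3.

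Mmp19, a secreted member of the family, had 612 counts in normal WT, 493 in normal KO, 1708 in OVA WT and 840 in OVA KO lungs. Both OVA-induced libraries lay above both normal libraries, and OVA WT was the highest. Its level in OVA WT was 2.77 times that in normal WT lungs (log2FC 1.47, 1.33 to 1.60) and its level in OVA KO was 2.05-fold below that in OVA WT lungs (log2FC -1.03, -1.15 to -0.91). This places it just beyond the 2-fold line, with Timp3 just short of it on the other side at 0.97 (0.94 to 1.0). In GENCODE M21, exons of Mmp19 share 212 bases with Gm47093, for which no count is given here, and 789 bases with Tmem198b, both on the opposite strand. Tmem198b had 537, 507, 1022 and 657 counts, highest in the same library as Mmp19. The strand setting used for counting is not given in the sources used here, and without strand the reads of bases shared with these genes, in 19.2% of the 150-base windows of Mmp19 transcripts, cannot be told apart.

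Timp1 is the inducible inhibitor of the family, secreted by many cell types under inflammatory cytokines. Its counts were 96 in normal WT, 88 in normal KO, 374 in OVA WT and 168 in OVA KO lungs. The normal libraries overlapped, OVA KO lay above them and OVA WT above all. The log2FC of OVA-induced over normal lungs was 1.95 (1.62 to 2.29) in WT and 0.84 (0.46 to 1.23) in KO, and that of KO over WT in OVA-induced lungs was -1.16 (-1.44 to -0.90). Timp1 lies within Syn1, a gene of the opposite strand with 21, 26, 75 and 51 counts, and shares 0 exon bases with it.

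Timp2, which blocks many proteases of the family and also takes part in Mmp2 activation, was the most even detected member on the CPM scale. Its counts were 13208 in normal WT, 13456 in normal KO, 10832 in OVA WT and 11632 in OVA KO lungs. Both OVA-induced libraries lay below both normal ones, at a log2FC of -0.30 (-0.34 to -0.26) in WT and -0.31 (-0.34 to -0.27) in KO. The genotypes differed by 0.10 (0.07 to 0.13) in normal and 0.09 (0.06 to 0.13) in OVA-induced lungs.

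Timp3, the inhibitor that binds to the matrix and also blocks Adam proteases, was nearly equal in 3 libraries, with 23214 counts in normal WT, 23416 in normal KO and 24535 in OVA KO lungs, and lower in OVA WT lungs, with 12428 counts. OVA WT was below normal WT at a log2FC of -0.91 (-0.95 to -0.88), and 291 of 13575 genes with at least 100 counts had a lower log2FC. Between OVA-induced libraries Timp3 was 1.96-fold higher in KO (log2FC 0.97, 0.94 to 1.0), and 541 of 13704 genes had a higher log2FC. Endothelial markers, with 0 of 7 at 0 counts, had a summed level of 3818, 3788, 2981 and 4323 CPM in normal WT, normal KO, OVA WT and OVA KO lungs. Of the 7, Tek and Vwf were over 2-fold higher in OVA KO than in OVA WT lungs, whereas Pecam1, at a log2FC of 0.12 (0.09 to 0.15), was nearly even and Cldn5, at -0.10 (-0.15 to -0.06), went the other way. Per 1000 endothelial marker counts Timp3 had 316.6, 338.7, 215 and 291 counts, so OVA WT was the lowest on this scale too. This ratio too was chosen after the data were seen, and the part of endothelial cells in the Timp3 difference was not tested. In the same annotation exons of Timp3 share 1733 bases with Syn3 on the opposite strand, which had only 136, 168, 108 and 217 counts.

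**Figure D2:**
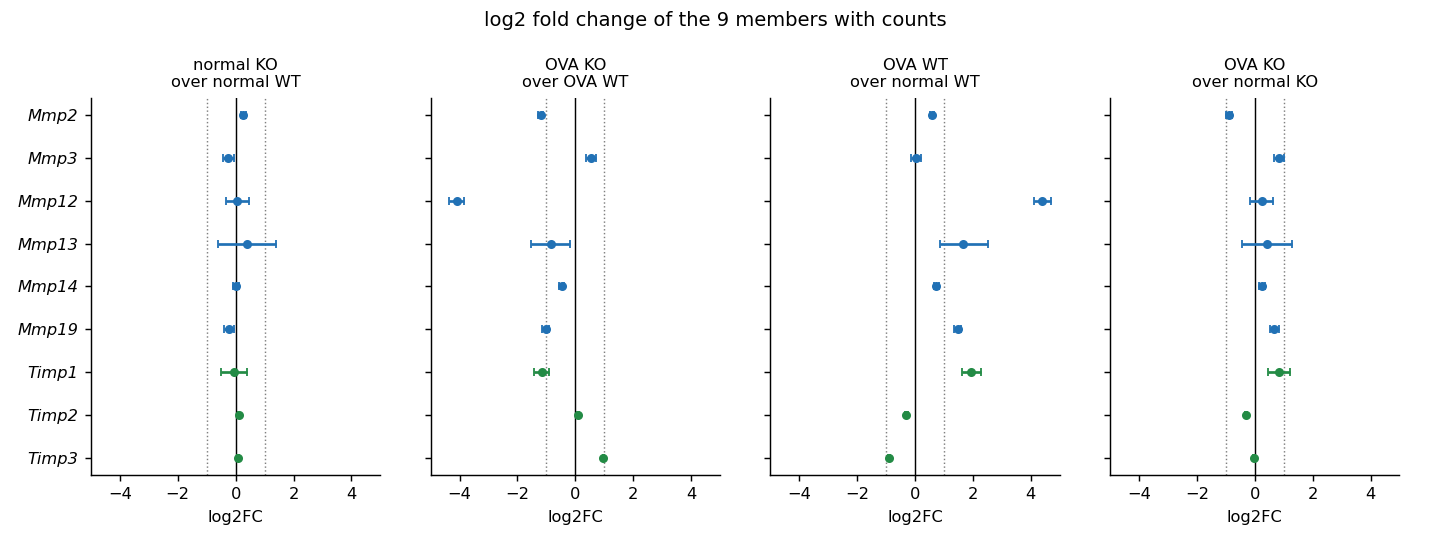
log2FC of the 9 genes with counts (blue proteases, green inhibitors) in the 4 comparisons; points are single-library ratios, bars exact 95% counting intervals, and dotted lines mark 2-fold. All 9 genes lie inside the dotted lines between the normal libraries, and Mmp12 lies at -4.10 between the OVA-induced ones.

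The counts over the 9 genes can be set beside those of all genes in each of the 4 comparisons. Between normal libraries 0 genes were over 2-fold higher and 0 lower, against 2.77%, 2.0% and, in either direction, 4.77% of all 18718 genes, with a median log2FC of 0.06 over the 9 genes and 0.00 over all. From normal to OVA WT lungs 4 genes (Mmp12, Mmp13, Mmp19 and Timp1) were over 2-fold higher and 0 lower, against 8.99%, 5.2% and, in either direction, 14.2% of 19023 genes, with medians of 0.73 and 0.00. In KO lungs the same step gave 0 genes over 2-fold higher and 0 lower, against 6.44%, 3.85% and, in either direction, 10.3% of 19073 genes, with medians of 0.24 and -0.01. At the shares of the normal pair and the KO pair fewer than 1 of 9 genes would pass, so these counts of 0 are near the background. Between OVA-induced libraries the 4 lower genes were Mmp2, Mmp12, Mmp19 and Timp1. Each library enters 2 of these comparisons, so they are not independent of one another.

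The scale matters for genes near the 2-fold line. TPM, which rescales each library after dividing by transcript length, shifts the ratio of OVA KO over OVA WT by 0.33 on the log2 scale for every gene. With this shift alone, added to the CPM values after they were seen, 2970 genes were over 2-fold higher and 876 lower in that comparison, against 1617 and 1413 without it, and the median of all genes moved from -0.02 to 0.30. TPM with a pseudocount of 0.1, which also pulls low genes toward 0, gave 2602 and 777, with a median of 0.29. In the KO pair the split was 1511 and 581 with the shift alone and 1287 and 481 with TPM and its pseudocount, against 1229 and 734. Among the members Mmp12 kept its place beyond 2-fold with TPM and its pseudocount at -3.75, whereas Mmp2, Mmp19 and Timp1 came to -0.87, -0.70 and -0.83, and Timp3 passed the line at 1.30.

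The response to OVA was compared between genotypes as the log2FC of the KO pair minus that of the WT pair, over all 4 libraries. The difference was -4.16 (-4.64 to -3.69) for Mmp12, -1.46 (-1.58 to -1.34) for Mmp2, -1.23 (-2.36 to -0.11) for Mmp13 and -1.11 (-1.60 to -0.62) for Timp1. These 4 genes lay below the 5th percentile of 17024 genes with at least 10 counts in every library, which was -1.06, with an all-gene median of -0.04. Mmp19 at -0.79 (-1.0 to -0.59) and Mmp14 at -0.50 (-0.64 to -0.36) lay between the 5th and the 95th percentile. Timp3 at 0.89 (0.85 to 0.93) and Mmp3 at 0.79 (0.54 to 1.05) had the opposite sign and stayed below the 95th percentile of 1.01. Timp2, at -0.01 (-0.06 to 0.04), had the same response in both genotypes within counting error on this scale, and on the TPM scale, where the median of all genes was 0.25, its difference was 0.29. With a running median along gene length subtracted, Timp1 came to -0.70 and lay above the 5th percentile, then -0.95, while the other 3 lay below the 5th percentile under each of the 5 alternatives tried for this difference.

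**Figure D3:**
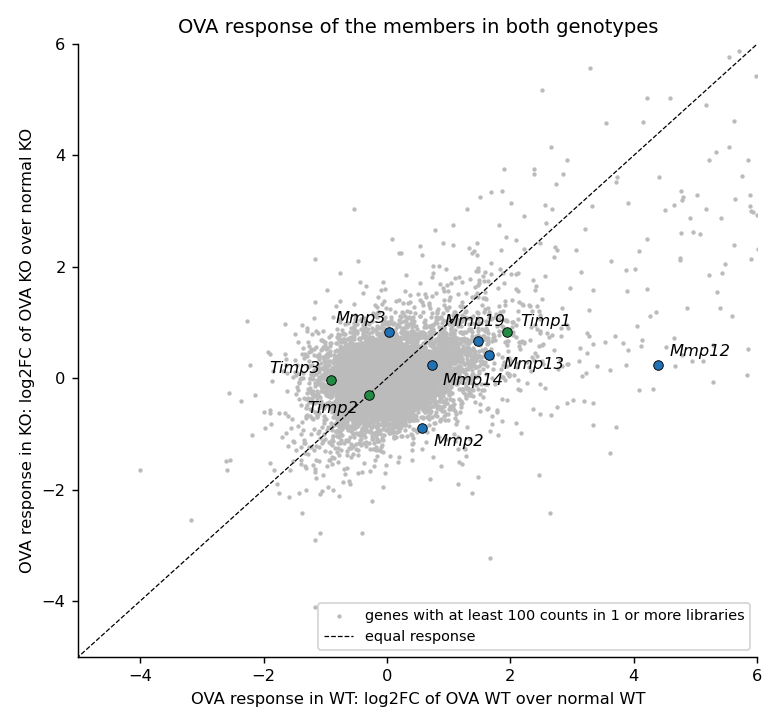
log2FC of OVA-induced over normal lungs in WT (x axis) and KO (y axis) for the 9 genes with counts (blue proteases, green inhibitors) and, in gray, genes with at least 100 counts in 1 or more libraries; the dashed line marks equal responses and a few gray genes lie beyond the axes. Mmp12 lies far to the right at 4.40 in WT and 0.24 in KO, and Timp2 lies on the line.

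Levels of different genes were ordered by TPM, which is scaled to length. In both normal libraries the order was Timp3, Timp2, Mmp2, Mmp14, Mmp3, Mmp19, Timp1, Mmp12 and Mmp13. Normal WT lungs had 614 TPM of Timp3, 451.5 of Timp2, 83.0 of Mmp2 and 3.32 of Mmp12. In OVA WT lungs Timp2, at 325 TPM, was above Timp3, at 289 TPM, and Mmp12 reached 62.1 TPM and the fifth place. In OVA KO lungs Timp3 was first again at 710.0 TPM, Mmp12 was back at 4.53 TPM, and Mmp14 (61.2), Mmp2 (59.8) and Mmp3 (55.2) stood together. Neighbors in these orders had separate counting intervals except Mmp14 with Mmp2 and Mmp2 with Mmp3 in the OVA KO library.

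Summed over the set, protease transcripts were 188 TPM in normal WT, 201 in normal KO, 325.5 in OVA WT and 215 in OVA KO lungs, and inhibitor transcripts were 1079, 1170.0, 659.8 and 1171 TPM. The ratio of proteases to inhibitors was 0.175, 0.172, 0.493 and 0.184. Only the OVA WT library had a higher ratio, from more protease and less inhibitor transcript together, and without Mmp12 its ratio was 0.399. Mmp12 made up 1.76%, 1.75%, 19.1% and 2.10% of the protease sum, and Mmp3 17.7%, 14.2%, 9.32% and 25.7%. Timp3 made up 56.9%, 56.7%, 43.8% and 60.7% of the inhibitor sum, and Timp1 1.25%, 1.13%, 6.96% and 2.20%. The ratio of Mmp12 to Timp1 TPM was 0.247 (0.185 to 0.330), 0.267 (0.198 to 0.359), 1.35 (1.21 to 1.51) and 0.176 (0.139 to 0.223), highest in OVA WT. These ratios are taken within a library and do not move with library scaling.

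**Figure D4:**
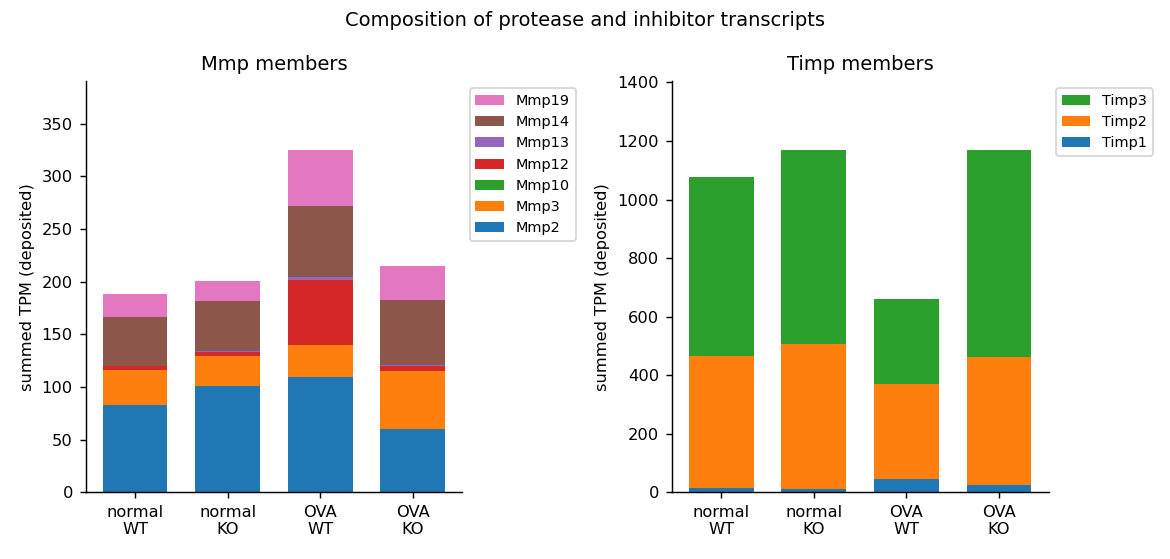
Deposited TPM of the proteases (left) and inhibitors (right) stacked by gene in the 4 libraries, 1 library per bar and no error drawn. OVA WT has the tallest protease bar, 325.5 TPM with Mmp12 at 62.1, and the shortest inhibitor bar, 659.8 TPM.

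Genes with the pattern most like Mmp12, by the distance between log2 CPM centered over the 4 libraries among 13899 genes, were Fcgbp (distance 0.39, 117, 102, 2978 and 179 counts), Ly6i (0.39, 26, 31, 813 and 41 counts) and Cxcr1 (0.43, 51, 60, 1187 and 95 counts). Those most like Timp1 were F10 (distance 0.10, 114, 103, 406 and 198 counts), Ncf4 (0.11, 180, 163, 664 and 332 counts) and Mfsd2a (0.18, 74, 65, 247 and 114 counts). With 4 libraries many genes share a pattern, so these names describe likeness only.

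Related genes were set beside the members, each list with its count in OVA KO over OVA WT lungs. Of 17 other Mmp and Timp genes 12 had enough counts, with 2 over 2-fold higher (Mmp8 and Mmp16), 0 lower and a median log2FC of 0.28. Mmp16 had only 10 and 21 counts, with an interval of -0.09 to 2.31 that holds 0. The neutrophil collagenase Mmp8 had 57, 39, 163 and 400 counts in normal WT, normal KO, OVA WT and OVA KO lungs, and the neutrophil gelatinase Mmp9 had 255, 374, 829 and 1470. Both were thus highest in the library in which Mmp12, Mmp2, Mmp19 and Timp1 were lower than in OVA WT. Mmp25, also a neutrophil protease, had 38, 54, 177 and 143 counts, and the inhibitor Timp4 had 57, 60, 54 and 86. Neutrophil markers summed to 167, 220.3, 1098 and 843 CPM. Without Lcn2, which epithelial cells also make and which was left out after the values were seen, the sums were 113, 141, 585 and 704 CPM, highest in OVA KO. The list was not uniform even so, with S100a8 at 2012 and 2693 and Csf3r at 1666 and 2640 counts in OVA WT and KO lungs, but Ltf at 795 and 462 and Retnlg at 2630 and 2015. The part of neutrophils in the Mmp8 and Mmp9 values was not tested.

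Of 8 other regulators of proteases or of matrix assembly, not all of them inhibitors, 6 had enough counts. Of these 3 were over 2-fold lower and 0 higher, with a median log2FC of -1.03. The elastase inhibitor Slpi, at 1713 and 542 counts in OVA WT and KO lungs (log2FC -1.67, -1.81 to -1.53), was 1 of these, with Tfpi2 and Spock1. Tfpi2 had only 65 and 30 counts (-1.80 to -0.48) and Spock1 16 and 2 (-6.17 to -0.92), with intervals that cross the 2-fold line. Pcolce, which enhances procollagen processing and is not an inhibitor, had 2935 and 1544 counts (log2FC -0.94) and is 1 of the values that set this median. Reck, a membrane inhibitor of these proteases, had 1885, 1742, 988 and 1386 counts, lowest in OVA WT like Timp3. Of 9 genes of plasminogen activation, a route that activates protease precursors, 7 had enough counts, with 1 lower, 0 higher and a median of -0.60. The lower gene was Plau, the urokinase, with 288 and 125 counts, whereas Plat, the tissue activator, had 1042 and 1696. Among 17 Adam and Adamts proteases 0 were over 2-fold in either direction, with a median of 0.06, and Adamts15, at 1821 and 3493 counts (log2FC 0.93, 0.85 to 1.01), came nearest, followed among genes with at least 100 counts by Adamts1, at 2507 and 3558.

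Of 18 matrix substrates 0 were over 2-fold between OVA-induced libraries, with a median log2FC of 0.10. The fibrillar collagen Col3a1 was lower in KO, at 13146 and 6695 counts (log2FC -0.98, -1.03 to -0.94), as was osteopontin, Spp1, at 3432 and 2206 counts, and elastin, Eln, the substrate of Mmp12, was higher, at 7000 and 10854 counts (log2FC 0.62, 0.58 to 0.67). Eln was also more than 2-fold above the normal lungs after OVA in both genotypes, with log2FC of 1.69 (1.62 to 1.76) in WT and 2.06 (2.0 to 2.13) in KO. Of 17 inducers of the proteases and AP-1 subunits 16 had enough counts, with 6 lower, 2 higher and a median of -0.42. The cytokine Il1a had 156 and 58 counts, whereas Fos had 533 and 1802 counts (log2FC 1.75, 1.61 to 1.89). Fos and Fosb, subunits of AP-1, were the 2 higher genes, and both were also over 2-fold higher in KO between the normal libraries, at a log2FC of 1.32 (1.23 to 1.41) and 1.15 (0.79 to 1.52). The other subunits stayed within 2-fold, with Jun at 4402 and 8149 counts, Fosl1 at 107 and 63 and Jund at 5820 and 4918. Mmp16, Tfpi2, Spock1, Reck, Eln, Fosb, Jun, Fosl1, Jund, Csf1r, Chil3, Pecam1, Cldn5, S100a8, Csf3r and Retnlg were named after their values were seen. So were Pdgfra, Pdgfrb, Dcn, Fcgr1, Mertk, Ear1, Ear2, Epx, Prg3, Scgb1a1 and Foxj1.

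**Figure D5:**
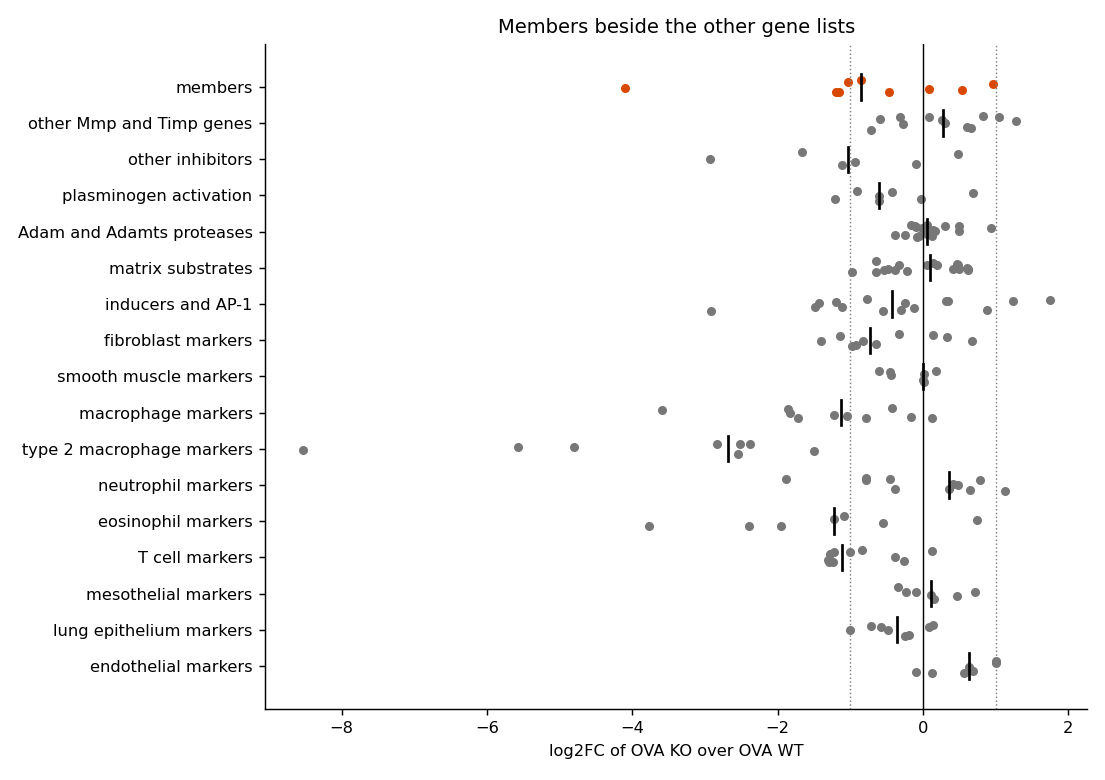
log2FC of OVA KO over OVA WT for the members (orange) and 16 other lists (gray), 1 point per gene whose larger count is 10 or more; vertical bars are list medians and dotted lines mark 2-fold, and Il13, with 0 counts in OVA KO, has no point. Members spread from -4.10 to 0.97, and the type 2 macrophage list lies wholly below -1.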

How the data were processed

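The members and the gene lists were chosen with earlier results of these data known. A directional kit was used for the lung RNA libraries. Paired-end reads of 150 bp were trimmed and mapped by the authors, per the labels to GRCm38 (HISAT2), and they deposited the raw count of reads per gene (featureCounts). Their labels also name DESeq2. Tool versions, the strand setting and the treatment of reads with several matches are not given in the sources used here. The authors also deposited TPM, which equal the counts divided by 1 length per gene and scaled per library.

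Counts were scaled by TMM over the 4 libraries (edgeR 4.0.16 in R 4.3.3, factors 0.973 to 1.02), and log2FC was taken with a prior count of 0.125. Python 3.11.15, numpy 2.4.6, pandas 2.3.3, scipy 1.17.1 and matplotlib 3.10.9 were used for the rest. A fold change needed 10 counts in the higher of the compared libraries, and has an exact Clopper-Pearson interval. Added to this were exact Poisson intervals of levels and, for the difference of 2 responses, a delta-method interval, all at 95%. The steps were tested on simulated data. A count of 0 was read against a floor of 3 counts per library.

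The naming rule takes all 10 members, and from each other list the 2 genes with the largest absolute log2FC between OVA-induced libraries and at least 100 counts, plus Mmp8, Mmp9, Mmp25, Timp4, genes overlapping a member, Rab44, and the 3 genes nearest in pattern to Mmp12 and to Timp1. Alternatives were DESeq2 1.42.0 size factors, total counts, TMM on the compared pair, a prior count of 2, TPM with a pseudocount of 0.1, thinning to equal depth, minimums of 1 and 50 counts, removal of a running median along gene length (501 genes), and intervals wholly beyond 2-fold. Positions are from GENCODE M21, and promoters are from RefSeq. The positions in the deposited table were not used, since for 6 of the 10 members they do not overlap the GRCm38 gene although the labels name that build. The annotation used for counting may therefore differ from the one used here for exon overlaps. An additive fit of genotype and OVA over the 4 libraries was not run.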

Additional observations from a re-analysis of the deposited data

Results flagged for a closer look

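Mmp2 and Mmp3 had genotype differences of opposite sign in normal and OVA-induced lungs, with counting intervals that leave out 0 on both sides. For Mmp2 the log2FC of KO over WT was 0.26 in normal and -1.20 in OVA-induced lungs. For Mmp3 it was -0.25 in normal and 0.54 in OVA-induced lungs. Mmp2 also had OVA responses of opposite sign, with a log2FC of OVA-induced over normal lungs of 0.58 in WT and -0.89 in KO, from the same 4 libraries. With 1 library per group these differences were not tested. The signs held under each alternative scaling tried, between 0.25 and 0.29 in normal and between -1.22 and -0.87 in OVA-induced lungs for Mmp2, and between -0.27 and -0.23 and between 0.54 and 0.86 for Mmp3.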

How the results depend on the processing

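Depth limits Mmp10, at 0 counts, and Mmp13, at 17 to 54 counts, and no alternative can stand in for replicates. No paired analysis was possible because each group is 1 library, and leaving out a library would remove the 2 comparisons it enters and leave the other 2 without replicates. Between OVA-induced libraries the members over 2-fold lower in KO, 4 in the report, were 1 (Mmp12) with TPM, 2 (Mmp2 and Mmp12) with the length trend removed, 2 (the same pair) where the whole interval had to pass 2-fold and 3 with total counts only (without Mmp19, at -0.97). The share of all genes over 2-fold lower in these settings was 4.03%, 5.7%, 2.76% and 6.58%. Timp3 was the 1 member over 2-fold higher with total counts only (1.04) and with TPM (1.30), against 0 in the report, where 9.52% and 13.5% of all genes were higher. The median of the members was -0.50 with TPM and -0.61 with the length trend removed. From normal to OVA WT lungs, TPM gave 1 lower member (Timp3, -1.09; 5.79% of all genes) and a median of 0.56, and whole intervals beyond 2-fold left 3 higher members, without Mmp13 (4.28% of all genes). In the KO pair, removing the length trend gave 1 higher member (Timp1, 1.06; 6.62% of all genes). The TPM values follow the shift between scales, 0.33 between OVA-induced libraries and -0.17 from normal to OVA WT lungs, and the cause of the others was not tested.

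Counts in place of TPM gave protease to inhibitor ratios of 0.131, 0.130, 0.423 and 0.134 in normal WT, normal KO, OVA WT and OVA KO lungs. The TPM ratios without Timp3 were 0.405, 0.397, 0.877 and 0.467, and without Mmp12 the OVA WT ratio by TPM was 0.399. Mmp12 over Timp1 in counts was 1.05, 1.14, 5.76 and 0.75. OVA WT had the highest ratio each time. Of 367 values of single members under alternatives 40 left their counting interval, 10 crossed the 2-fold line and 6 changed sign, the last all from values of at most 0.04 in size. Mmp12 stayed between -4.10 and -3.75 across the OVA-induced libraries and between 4.19 and 4.42 in the WT pair.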

Other observations

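Lists of other cell types were counted in the same OVA-induced pair, where 7.34% of all genes were over 2-fold lower in KO and 8.4% higher. Of 10 T cell markers 6 were over 2-fold lower in KO and 0 higher, with a median log2FC of -1.11, and Trac, a chain of the T cell receptor, had 365 and 148 counts and Icos, a costimulatory receptor, 120 and 49. Of 9 eosinophil markers 7 had enough counts, with 5 lower, 0 higher and a median of -1.23. Ccr3, the eotaxin receptor, had 490 and 94 counts and Ear6, a ribonuclease, 110 and 8. Ear1, of the same list, went the other way at 0.75 (0.52 to 0.98), and Ear2 was within 2-fold at -0.55. Epx, at 1 and 0 counts, and Prg3, at 3 and 2, were too low to compare. Siglecf is in both the eosinophil and the macrophage list. Of 10 fibroblast markers 2, Lum and Tcf21, were lower and 0 higher, with a median of -0.73. Within 2-fold, Pdgfra at 0.67 (0.62 to 0.72), Pdgfrb at 0.33 and Dcn at 0.14 went the other way. In this list 4 genes (Dcn and 3 collagens) are also matrix substrates.

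Of 12 neutrophil markers 11 had enough counts, with 1 lower (Lcn2, which epithelial cells also make), 1 higher (Ly6g, from 9 to 20 counts, named after its values were seen) and a median of 0.36. Smooth muscle markers (7 genes) and mesothelial markers (7 genes) had 0 genes over 2-fold in either direction, with medians of 0.00 and 0.11. Their members with the most different levels were Tagln at 3980 and 2651 and Actg2 at 831 and 611 counts, and Lrrn4 at 251 and 416 and Krt19 at 3577 and 2826. Of 8 lung epithelium markers 1 was lower, Sftpc, the surfactant protein of alveolar type 2 cells, at 361981 and 181126 counts (log2FC -1.01, -1.02 to -1.0). The list median was -0.36, and Ager, a marker of alveolar type 1 cells, had 31705 and 19434 counts. The airway markers Scgb1a1, at 0.14 (0.14 to 0.15), and Foxj1, at 0.09 (-0.01 to 0.19), were nearly even or slightly higher in KO. The endothelial list had a median of 0.63. In normal lungs 3 of the 7 mesothelial markers were over 2-fold higher in KO, against 2.77% of all genes, with a list median of 0.71.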
